A study of Mus musculus with 6 samples.

Results

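The transcripts described here are those of 10 genes that make, hold and receive transforming growth factor beta (TGF-beta) in mouse lung, taken by name from a table of 24061 gene identifiers. They are the 3 ligand genes Tgfb1, Tgfb2 and Tgfb3, the 3 receptor genes Tgfbr1, Tgfbr2 and Tgfbr3, and the 4 latent binding protein genes Ltbp1, Ltbp2, Ltbp3 and Ltbp4. Messenger RNA of lung was sequenced in 2 groups of 3 libraries. The TGFalpha group carried both CCSP and TGFalpha (genotype CCSP/TGFalpha, labelled as diseased lung), and the control group carried CCSP alone (CCSP/-). All 6 libraries came from mice given doxycycline for 3 weeks. The name CCSP stands for club cell secretory protein, and its promoter serves to direct transgenes to lung epithelium. TGFalpha is a ligand of the epidermal growth factor receptor that is unrelated to TGF-beta despite its name. Strain, sex, age, doxycycline dose and whether each library was 1 animal are not stated in the labels, so p-values reflect only how far these 6 libraries vary.

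TGF-beta is made as a precursor whose propeptide stays wrapped around the mature growth factor and keeps it inactive. In most cells a latent TGF-beta binding protein is joined to that propeptide and anchors the complex in the matrix, from which integrins, proteases or mechanical force release the ligand. The free ligand joins a type II receptor (Tgfbr2) to a type I receptor (Tgfbr1), which phosphorylates Smad2 and Smad3, while the proteoglycan Tgfbr3 (betaglycan) presents ligand to the signalling pair. In lung the pathway is best known for driving fibroblasts to lay down collagen.

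Totals ran from 23317747 to 24914322 counts in the TGFalpha libraries and from 21479006 to 24837861 in the control libraries, and every member had between 316 and 11709 counts in every library. All 10 passed the filter on low counts. The mouse Tgfa row, the gene of the genotype label, did not separate the groups, at 26.6, 25.9 and 29.9 CPM (counts over the TMM-scaled size of the library) in TGFalpha replicates 1 to 3 and 26.4, 22.6 and 28.4 CPM in control replicates 1 to 3 (edgeR adjusted p = 0.739). That row would hold transgene reads only where the transgene matches the mouse sequence, and the groups rest on the labels. Alveolar type 2 markers, led by surfactant genes, were abundant in all libraries and summed to between 15115 and 17198 CPM in TGFalpha libraries and between 13184 and 17180 CPM in control libraries. Replicate 1 of each group stood apart in 6 skeletal muscle genes (Acta1, Ckm, Myh2, Myh4, Mylpf and Tnnt3, singled out after their values were seen) of a list of 10 striated muscle genes, but not in its 4 cardiac genes, of which Actc1 fell (edgeR adjusted p = 0.0350). The sum of the list was 2107 CPM in TGFalpha replicate 1 and 1297 CPM in control replicate 1, against 109 to 131 CPM in the other TGFalpha libraries and 139 to 185 CPM in the other control libraries. Control replicate 3 was the lowest of all 6 libraries in 4 of 5 mesothelial markers, with Upk3b at 6.57 CPM against 83.2 and 83.7 CPM in control replicates 1 and 2.

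Of the 10 genes, 4 rose in CCSP/TGFalpha lungs and none fell. The ligand gene Tgfb3 had the greatest fold of the 10, at 4.93 times the control level, followed by the latent binding protein genes Ltbp2 (2.90) and Ltbp3 (2.59) and the type I receptor gene Tgfbr1 (1.83). Each role therefore held at least 1 gene that rose beside genes that did not pass the test. Tgfb1, Tgfb2, Tgfbr2, Tgfbr3, Ltbp1 and Ltbp4 were the 6 that did not pass. The test was the quasi-likelihood test of edgeR with Benjamini-Hochberg adjustment over 16089 genes and a threshold of 0.05. Of the members 40% rose and 0% fell, against 5.03% and 3.29% of all genes tested. For the count of 0 falls by edgeR, 2 members (Tgfbr3 and Ltbp4) were lower at an unadjusted p under 0.05, where 12.8% of all genes were. Limma-voom also called 0 falls, against 3.72% of all genes, and DESeq2 called 1, Ltbp4, against 7.3% of all genes. The median log2 fold change of the 10 was 0.27, beside 0.01 over all genes tested.

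**Figure D1:**
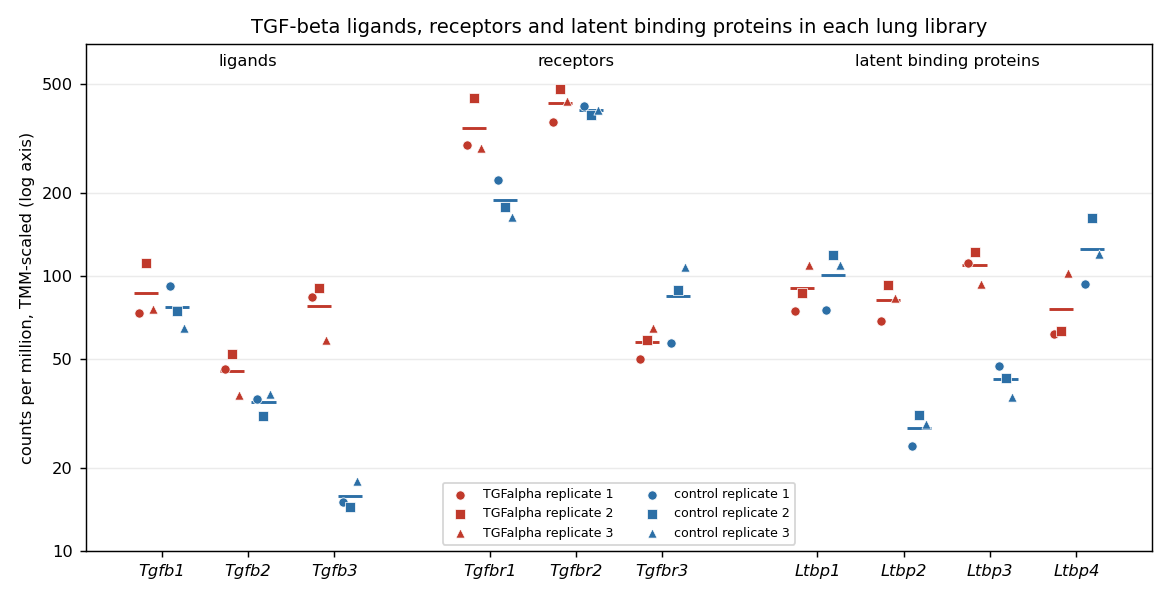
Level of each of the 10 genes in CPM (log axis) in the 3 TGFalpha libraries (red, left) and the 3 control libraries (blue, right), with replicates 1 to 3 as circle, square and triangle and a bar at each group mean. The groups separate for Tgfb3, Tgfbr1, Ltbp2 and Ltbp3, and their points interleave for the other 6 genes.

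**Figure D2:**
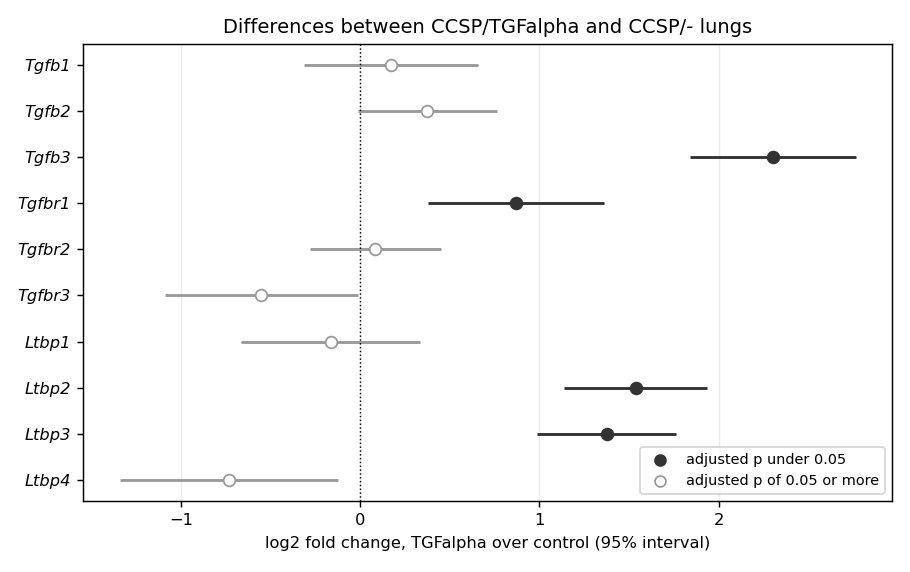
Log2 fold change of TGFalpha over control with its unadjusted 95% interval for the 10 genes. Filled points passed an adjusted p of 0.05, and Tgfb3 lies farthest to the right at 2.30.

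The starts of 3 of the 4 genes that rose are shown because these transcripts were all higher in TGFalpha lungs. They are windows of 250 bases before and 50 bases from the start site on, from RefSeq (GRCm38.p6), the build (mm10) named in the submitters' processing notes. Capitals mark matches, on either strand, to the AP-1 motif TGANTCA, the Smad-binding CAGACA, the GC box GGGCGG and the TATA box TATAAA. The Ltbp2 window is chr12:84876442-84876741 on the minus strand, that of Ltbp3 chr19:5740650-5740949 on the plus strand, and that of Tgfbr1 chr4:47352972-47353271 on the plus strand.
Ltbp2: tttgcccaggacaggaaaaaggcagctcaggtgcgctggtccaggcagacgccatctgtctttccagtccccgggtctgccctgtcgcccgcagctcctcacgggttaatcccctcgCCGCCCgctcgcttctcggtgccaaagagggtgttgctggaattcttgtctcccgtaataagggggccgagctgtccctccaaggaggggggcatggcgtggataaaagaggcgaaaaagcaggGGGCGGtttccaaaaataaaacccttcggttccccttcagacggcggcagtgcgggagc
Ltbp3: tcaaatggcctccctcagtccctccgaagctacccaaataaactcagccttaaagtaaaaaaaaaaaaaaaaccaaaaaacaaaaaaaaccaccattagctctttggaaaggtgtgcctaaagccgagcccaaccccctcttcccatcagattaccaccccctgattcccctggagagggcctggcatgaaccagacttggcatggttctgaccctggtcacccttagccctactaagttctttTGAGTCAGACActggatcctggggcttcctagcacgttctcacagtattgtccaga
Tgfbr1: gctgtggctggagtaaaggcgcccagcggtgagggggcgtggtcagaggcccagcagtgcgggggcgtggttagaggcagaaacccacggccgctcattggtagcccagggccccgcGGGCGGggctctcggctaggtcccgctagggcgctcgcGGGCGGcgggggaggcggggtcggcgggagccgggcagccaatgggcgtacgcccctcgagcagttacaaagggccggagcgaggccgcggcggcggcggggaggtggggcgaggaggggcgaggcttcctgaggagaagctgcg
None of these motifs was in all 3 windows. Ltbp2 had GC boxes at positions -133 and -9 from the start site, and Tgfbr1 had them at -133 and -95. Ltbp3 had no GC box, but an AP-1 match at -6 that shares letters with a CAGACA match at -1. Of 32851 promoter windows of the same length, 7.81% held the AP-1 motif, 21% held CAGACA, 35.7% held the GC box and 13.6% held the TATA box. A match is a description of letters and not a measured binding site. RefSeq windows of 8 of the 10 genes were searched, and the set of windows used here held none for Tgfb3 and Tgfbr3. Among the genes that did not pass the test, the Tgfb1 window held 6 GC boxes, and the Tgfb2 window held a TATA box at -31 and a CAGACA match at -204. The 3 Ltbp4 windows, of which the last 2 share most of their letters, held 3, 7 and 9 GC boxes. One of the Ltbp1 windows held CAGACA matches at -149 and -98, and the other Ltbp1 window and that of Tgfbr2 held none of the 4 motifs. The second Tgfbr1 window, at another start, held a CAGACA match at -203.

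Among the ligands, Tgfb3 was the gene that set the groups apart. Tgfb3 (gene ID 21809; GRCm38 chromosome 12, 86056743 to 86079041) encodes the TGF-beta isoform known from mouse work for its part in palate closure and lung development. It stood at 84.3, 90.8 and 58.4 CPM in TGFalpha replicates 1 to 3 and at 15.0, 14.5 and 17.9 CPM in control replicates 1 to 3. Every TGFalpha library stood far above every control library, and TGFalpha replicate 3 was the lowest of its group. The log2 fold change was 2.30 ± 0.20 (SE; edgeR adjusted p = 0.00134), with a 95% interval from 3.57- to 6.79-fold. Whole-lung RNA cannot tell more transcript per cell from more cells of a kind that makes it, here or for any gene below.

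Tgfb1 (gene ID 21803; chromosome 7, 25687002 to 25705077), the isoform most often studied in fibrosis, overlapped between the groups. It was at 73.7, 111 and 75.8 CPM in TGFalpha replicates 1 to 3 and at 92.0, 74.8 and 64.9 CPM in control replicates 1 to 3. TGFalpha replicate 2 alone lay above every control library. The log2 fold change was 0.17 ± 0.21 (edgeR adjusted p = 0.638), and its 95% interval, from 0.805- to 1.57-fold, leaves room for a modest change either way. Without TGFalpha replicate 2 the sign turned, to a log2 fold change of -0.044.

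Tgfb2 (gene ID 21808; chromosome 1, 186622787 to 186709697), the third isoform, was at 45.9, 52.0 and 37.1 CPM in TGFalpha replicates 1 to 3 and at 35.7, 31.1 and 37.3 CPM in control replicates 1 to 3. The groups met at TGFalpha replicate 3 and control replicate 3. Its log2 fold change was 0.37 ± 0.17, with an edgeR adjusted p of 0.197 and a 95% interval from 0.992- to 1.69-fold.

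Per kilobase of the longest coding transcript, Tgfb1 was the most abundant ligand transcript in both groups, and Tgfb3 passed Tgfb2 in the TGFalpha lungs. Tgfb1 averaged 40.0 ± 9.73 RPKM (CPM per kilobase; SD, n = 3 per group) in TGFalpha lungs and 35.5 ± 6.31 RPKM in control lungs. Tgfb3 averaged 23.0 ± 5.07 RPKM in TGFalpha lungs and 4.67 ± 0.543 RPKM in control lungs, and Tgfb2 8.80 ± 1.47 RPKM in TGFalpha lungs and 6.79 ± 0.636 RPKM in control lungs. The share of Tgfb3 in the summed level of the 3 ligands was 36.8, 30.4 and 29.1% in TGFalpha replicates 1 to 3 and 8.26, 9.57 and 12.5% in control replicates 1 to 3. The groups did not overlap, and the means differed by 22.0 percentage points. An exact 2-sided permutation test gave p = 0.1, the smallest that 3 libraries against 3 allow, and 0.1 after adjustment over the 3 such tests made. The summed ligand level was 67.8, 88.2 and 59.4 RPKM in TGFalpha replicates 1 to 3 and 53.7, 44.8 and 42.4 RPKM in control replicates 1 to 3.

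The length chosen for Tgfb1 moves these levels. Its longest coding transcript has 2175 bases, whereas the union of its annotated exons has 5042 bases. With exon unions as lengths, Tgfb1 averaged 17.3 ± 4.20 RPKM in TGFalpha lungs and 15.3 ± 2.72 RPKM in control lungs, below Tgfb3 in the TGFalpha lungs. The Tgfb3 share was then 47.8% in TGFalpha lungs and 18.1% in control lungs.

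**Figure D3:**
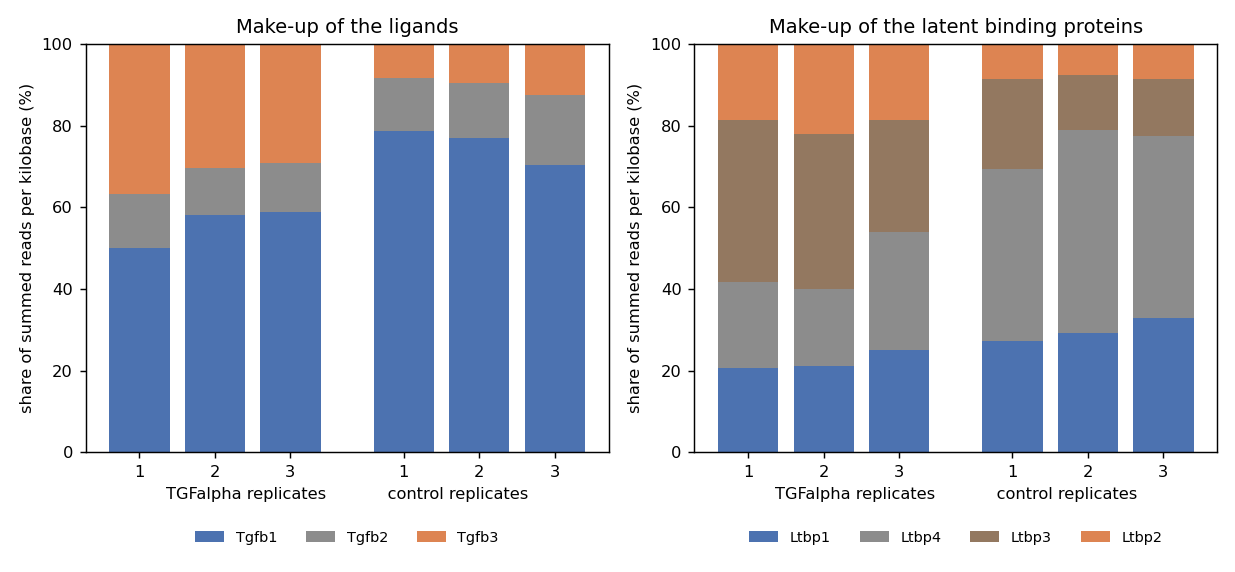
Share of each gene in the summed reads per kilobase of the 3 ligands (left) and the 4 latent binding proteins (right), one bar per library, with TGFalpha replicates left of control replicates. Tgfb3 (orange, left panel) fills 29.1 to 36.8% of the TGFalpha bars and 8.26 to 12.5% of the control bars. In the right panel Ltbp2 and Ltbp3 fill more of the TGFalpha bars than of the control bars, and Ltbp4 and Ltbp1 fill less.

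Of the receptors, the type I receptor gene rose and the type II gene did not pass. Tgfbr1 (gene ID 21812; chromosome 4, 47353222 to 47414926), the kinase that phosphorylates Smad2 and Smad3, was at 299, 445 and 292 CPM in TGFalpha replicates 1 to 3 and at 225, 179 and 164 CPM in control replicates 1 to 3. All TGFalpha libraries lay above all control libraries, with TGFalpha replicate 2 well above its group. The log2 fold change was 0.87 ± 0.21, with an edgeR adjusted p of 0.0452 just under the threshold. The call was lost in 5 of the 6 fits with 1 library left out (adjusted p from 0.0553 to 0.182) and kept without control replicate 1 (0.0455). It was also lost without replicate 1 of both groups (0.0592), while the log2 fold change stayed between 0.65 and 1.10 in these fits.

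Tgfbr2 (gene ID 21813; chromosome 9, 116087695 to 116175363), which binds ligand first, was at 364, 481 and 434 CPM in TGFalpha replicates 1 to 3 and at 418, 384 and 404 CPM in control replicates 1 to 3. The control libraries lay inside the range of the TGFalpha libraries. Its log2 fold change was 0.08 ± 0.16 (edgeR adjusted p = 0.766), with a 95% interval from 0.824- to 1.36-fold, and without TGFalpha replicate 2 it was -0.0094. Tgfbr3 (gene ID 21814; chromosome 5, 107106567 to 107289629) was at 49.9, 58.5 and 64.8 CPM in TGFalpha replicates 1 to 3 and at 57.1, 89.1 and 108 CPM in control replicates 1 to 3. Control replicate 1 lay among the TGFalpha libraries, and the log2 fold change of -0.55 ± 0.24 did not pass (edgeR adjusted p = 0.176; 95% interval from 0.470- to 0.992-fold).

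The signalling receptors were also set against each other within each library. The log2 ratio of Tgfbr2 to Tgfbr1 per kilobase was -0.21, -0.38 and 0.08 in TGFalpha replicates 1 to 3 and 0.40, 0.61 and 0.81 in control replicates 1 to 3. It was lower in every TGFalpha library than in any control library, by 0.78 on average (exact 2-sided permutation p = 0.1, the smallest possible, and 0.1 adjusted over 3 tests). This difference does not depend on the lengths used, although each ratio does.

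The latent binding proteins split, with Ltbp2 and Ltbp3 higher and the other 2 genes not past the threshold. Ltbp2 (gene ID 16997; chromosome 12, 84783212 to 84876558) encodes the family member that is not known to bind latent TGF-beta itself and that sits on fibrillin microfibrils. It was at 68.8, 92.9 and 83.0 CPM in TGFalpha replicates 1 to 3 and at 24.0, 31.3 and 29.1 CPM in control replicates 1 to 3. The lowest TGFalpha library was above every control library. The log2 fold change was 1.54 ± 0.17 (edgeR adjusted p = 0.00302; 95% interval from 2.20- to 3.82-fold).

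Ltbp3 (gene ID 16998; chromosome 19, 5740900 to 5758536) encodes a carrier of latent TGF-beta that is known from mouse mutants for roles in bone and lung. It stood at 112, 122 and 93.8 CPM in TGFalpha replicates 1 to 3 and at 47.3, 42.8 and 36.4 CPM in control replicates 1 to 3. The groups lay apart with no overlap, and replicate 3 was the lowest library of each. Its log2 fold change was 1.38 ± 0.17 (edgeR adjusted p = 0.00450; 95% interval from 1.98- to 3.39-fold).

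Ltbp1 (gene ID 268977; chromosome 17, 75005480 to 75392512), a carrier of latent TGF-beta, was at 74.8, 87.1 and 110 CPM in TGFalpha replicates 1 to 3 and at 75.2, 119 and 110 CPM in control replicates 1 to 3. The groups overlapped over most of their range. Its log2 fold change was -0.16 ± 0.22 (edgeR adjusted p = 0.665; 95% interval from 0.631- to 1.26-fold). Ltbp4 (gene ID 108075; chromosome 7, 27305140 to 27339720), known in mouse for elastic fibre assembly in the lung, was at 61.5, 63.4 and 102 CPM in TGFalpha replicates 1 to 3 and at 93.9, 163 and 120 CPM in control replicates 1 to 3. TGFalpha replicate 3 lay above control replicate 1. The log2 fold change of -0.73 ± 0.27 had an edgeR adjusted p of 0.124 and, by DESeq2, an adjusted p of 0.0387.

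The make-up of this family was read per kilobase, and the shares of none of its 4 genes overlapped between the groups. Because shares are parts of a whole, higher Ltbp2 and Ltbp3 lower the shares of the others even at unchanged levels. In CPM, Ltbp1 and Ltbp4 overlapped between the groups. The Ltbp2 share of the 4 genes was 18.7, 22.1 and 18.7% in TGFalpha replicates 1 to 3 and 8.57, 7.57 and 8.58% in control replicates 1 to 3 (exact 2-sided permutation p = 0.1, the smallest possible, and 0.1 adjusted over 3 tests). Ltbp3 held 35.0 ± 6.61% of the sum in TGFalpha lungs and 16.5 ± 4.78% in control lungs (SD, n = 3 per group). Ltbp4 held 22.9 ± 5.26% in TGFalpha lungs and 45.4 ± 3.84% in control lungs, and Ltbp1 22.2 ± 2.41% in TGFalpha lungs and 29.8 ± 2.87% in control lungs. The summed level of the 4 overlapped, at 54.4, 62.1 and 65.8 RPKM in TGFalpha replicates 1 to 3 and 41.4, 61.0 and 50.1 RPKM in control replicates 1 to 3.

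Across all 10 genes, the receptor pair and Tgfb1 led the levels per kilobase of the longest transcript in both groups. In TGFalpha lungs Tgfbr1 (60.0 ± 15.0 RPKM), Tgfbr2 (52.7 ± 7.33 RPKM) and Tgfb1 came first with ranges that overlapped from one to the next, and Tgfb1 lay above Tgfb3. From Tgfb3 on, through Ltbp3 (21.1 ± 2.79 RPKM), Ltbp4, Ltbp1, Ltbp2, Tgfbr3 and Tgfb2, each gene overlapped the next. In control lungs Tgfbr2 (49.7 ± 2.07 RPKM) lay above all others, and Tgfb1, Tgfbr1 (32.9 ± 5.48 RPKM), Ltbp4, Ltbp1 and Tgfbr3 followed, each overlapping the next. Tgfbr3 lay above Ltbp3, which overlapped Tgfb2, and Tgfb2 lay above Tgfb3. Tgfb3 and Ltbp2 (4.15 ± 0.550 RPKM) were the lowest there and overlapped each other. Tgfb3 thus held rank 4 of 10 in TGFalpha lungs and rank 9 in control lungs. This order depends on the lengths chosen. With exon unions as lengths Tgfb3 held rank 3 in TGFalpha lungs, above Tgfb1, and rank 8 in control lungs. Ltbp4 (19.4 RPKM) then stood above Tgfb1 (15.3 RPKM) in control lungs.

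The groups did not overlap in CPM, with TGFalpha higher, for 4 of the 10 genes, where 17.7% of all genes tested were so placed. None of the 10 was lower in every TGFalpha library than in any control library, against 15.5% of all genes. Tgfb3, Ltbp2 and Ltbp3 kept their calls in all 6 fits with 1 library left out (edgeR adjusted p from 0.00126 to 0.0168, 0.00841 to 0.0281 and 0.00723 to 0.0350) and without replicate 1 of both groups (0.0123, 0.0121 and 0.0182). Over the same 6 fits the number of genes called in the whole table ranged from 238, without control replicate 3, to 1088, without TGFalpha replicate 3, beside 1340 with all libraries. Without control replicate 3 the edgeR adjusted p was 0.0134 for Tgfb3, 0.0281 for Ltbp2, 0.0342 for Ltbp3 and 0.182 for Tgfbr1. Leaving out control replicate 2 gave 307, TGFalpha replicate 1 gave 411 and TGFalpha replicate 2 gave 564.

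Markers of several cell types differed between the groups too, where 5.03% of all genes tested rose and 3.29% fell by edgeR. Of 10 endothelial markers 4 fell by edgeR (Tek, Ptprb, Pecam1 and Kdr), 10 by DESeq2 and 4 by limma-voom. All 10 had a log2 fold change below 0. Their sum was 1355, 1360 and 2467 CPM in TGFalpha replicates 1 to 3 and 2716, 4969 and 4582 CPM in control replicates 1 to 3. Control replicate 1 was the lowest control library in that sum, and TGFalpha replicate 3 the highest of its group. The same places held for Tgfbr3, Ltbp4 and Ltbp1, and also for the summed platelet, alveolar type 1 and fibroblast markers. These places were thus not particular to endothelial markers. Of 6 platelet markers 2 fell, with sums from 24.1 to 33.1 CPM in TGFalpha libraries and from 41.5 to 77.5 CPM in control libraries. Of 8 alveolar type 1 markers 2 fell, with sums from 2093 to 3251 CPM in TGFalpha libraries and from 3219 to 4612 CPM in control libraries. Aqp5 of this list went the other way without passing (log2 fold change 0.81 ± 0.22, edgeR adjusted p = 0.0616). It was higher in every TGFalpha library than in any control library. DESeq2 called 4 of the list lower and 1 higher. Of 7 ciliated cell markers 3 fell, with sums from 78.9 to 127 CPM in TGFalpha libraries and from 203 to 236 CPM in control libraries. Of 4 club cell markers 1 fell, with sums from 4063 to 5642 CPM in TGFalpha libraries and from 8089 to 10250.4 CPM in control libraries. By DESeq2 6 ciliated and 2 club cell markers fell, and by limma-voom 4 and 1.

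The summed fibroblast, smooth muscle, macrophage, mesothelial and lymphocyte markers overlapped between the groups. Of 11 fibroblast markers 1 rose (Lum), with sums from 1321 to 1670 CPM in TGFalpha libraries and from 1050 to 1800 CPM in control libraries. Of 6 smooth muscle markers 1 fell (Myh11), with sums from 114 to 210 CPM in TGFalpha libraries and from 141 to 176 CPM in control libraries. Des made up most of the highest sum, at 155 CPM in TGFalpha replicate 1. Des was at 59.3 and 46.1 CPM in TGFalpha replicates 2 and 3 and at 69.8, 30.8 and 34.5 CPM in control replicates 1 to 3. It was the 1 marker of this list with a log2 fold change above 0, and the other 5 lay below 0. The overlap of these sums therefore leans on Des. Of 8 macrophage markers 2 rose (C1qa and C1qb), with sums from 590 to 981 CPM in TGFalpha libraries and from 473 to 817 CPM in control libraries. Of 5 mesothelial markers 1 rose (Wt1) and 1 fell (Krt19), with sums from 374 to 511 CPM in TGFalpha libraries and from 213 to 412 CPM in control libraries. Control replicate 3 stood at 0.731 CPM for Wt1, 11.4 CPM for Msln and 3.65 CPM for Lrrn4. Control replicates 1 and 2 stood at 11.2 and 12.7 CPM for Wt1 and at 68.1 and 70.6 CPM for Msln. For Lrrn4 they stood at 36.8 and 40.9 CPM. Krt19 made up most of the sum of control replicate 3 and was the largest of the 5 in every control library. It was at 150, 109 and 115 CPM in TGFalpha replicates 1 to 3 and at 189, 204 and 191 CPM in control replicates 1 to 3. Krt19 thus lacked the drop in control replicate 3 seen in the other mesothelial markers, and the overlap of these sums leans on it. None of 8 lymphocyte markers and none of 7 alveolar type 2 markers passed by edgeR, DESeq2 or limma-voom, and 0 of either had an unadjusted p under 0.05 by edgeR. Lymphocyte sums ran from 64.9 to 156 CPM in TGFalpha libraries and from 124 to 132 CPM in control libraries. No marker was at 0 in all 6 libraries, and the part of these cell types in the results for the 10 genes was not tested.

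The genes around the pathway were read from 5 lists. Of all genes tested 5.03% rose and 3.29% fell by edgeR, with a median log2 fold change of 0.01. By DESeq2 7.63% rose and 7.3% fell, and by limma-voom 4.98% rose and 3.72% fell. Of 15 tested genes that release or process latent TGF-beta, 5 rose and 1 fell, with a median log2 fold change of 0.36. Bmp1, a protease of procollagen that also cleaves latent TGF-beta binding protein, was at 222, 244 and 148 CPM in TGFalpha replicates 1 to 3 and at 39.3, 43.0 and 35.2 CPM in control replicates 1 to 3, a log2 fold change of 2.39 ± 0.21. The gelatinase gene Mmp2 (1.70 ± 0.17) and the plasminogen activator gene Plat (1.66 ± 0.23) rose as well, and Plat lost its call without control replicate 3 (edgeR adjusted p = 0.0542). The others of the 5, named after their values were seen, were the integrin chain genes Itgb5 and Itgb8. Without control replicate 3 the rises numbered 3.

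The integrin chain gene Itgb6, whose product with the alpha-v chain is the epithelial activator of latent TGF-beta, fell. It was at 74.8, 93.3 and 100.1 CPM in TGFalpha replicates 1 to 3 and at 131, 166 and 136 CPM in control replicates 1 to 3. All TGFalpha libraries were below all control libraries. The log2 fold change was -0.69 ± 0.17 (edgeR adjusted p = 0.0461), and no fit with 1 library left out called it (adjusted p from 0.0579 to 0.155).

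Matrix proteins that hold or bind the latent complex were mostly higher. Of 9 tested, 6 rose and none fell by edgeR, limma-voom or DESeq2 (0 lower at an unadjusted p under 0.05 by edgeR), and the median log2 fold change was 1.25. Over all genes tested the edgeR shares were 5.03% higher and 3.29% lower. Fn1, the fibronectin gene, was at 1304, 2865 and 1325 CPM in TGFalpha replicates 1 to 3 and at 199, 207 and 173 CPM in control replicates 1 to 3 (log2 fold change 3.25 ± 0.34). TGFalpha replicate 2 was far above the rest of its group. Fbn2, a fibrillin gene, rose with a log2 fold change of 1.94 ± 0.32, and Bgn, the proteoglycan biglycan that binds TGF-beta, with 1.25 ± 0.21. Without control replicate 3 only 1 of the 9 rose, and the calls of Fbn2 and Bgn were among those lost (edgeR adjusted p = 0.0759 and 0.0680). Without TGFalpha replicate 2, 3 of the 9 rose.

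Among 17 Smad genes and their regulators 1 passed, near the 5.03% of all genes tested that rose by edgeR. The median log2 fold change was 0.02. For the falls given below, the shares of all genes were 3.29% by edgeR, 3.72% by limma-voom and 7.3% by DESeq2. At an unadjusted p under 0.05, 12.8% of all genes were lower by edgeR. Smad3, the transcription factor phosphorylated by Tgfbr1, was at 101, 103 and 99.6 CPM in TGFalpha replicates 1 to 3 and at 54.2, 48.1 and 45.1 CPM in control replicates 1 to 3. The libraries of each group lay close together and the groups far apart. Its log2 fold change was 1.04 ± 0.14 (edgeR adjusted p = 0.00603). Of this list 0 fell by edgeR or limma-voom and 2 by DESeq2, with 3 lower at an unadjusted p under 0.05 by edgeR. Of 7 accessory receptors and inhibitors Pmepa1, a target of the pathway that restrains it, rose with a log2 fold change of 1.56 ± 0.22, and 0 fell by edgeR (2 lower at an unadjusted p under 0.05), against 2 by DESeq2 and 1 by limma-voom. Pmepa1 was at 249, 267 and 220 CPM in TGFalpha replicates 1 to 3 and at 62.1, 111 and 77.4 CPM in control replicates 1 to 3, and leaving out control replicate 3 ended its call (edgeR adjusted p = 0.0595). The list had a median of -0.04, and 1 fell without control replicate 1 and 2 without TGFalpha replicate 3.

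Of 19 tested genes known to respond to TGF-beta, 9 rose and 0 fell by edgeR, with a median log2 fold change of 0.83. By edgeR 1 was lower at an unadjusted p under 0.05, and 1 fell by DESeq2 and 0 by limma-voom. Over all genes tested the edgeR shares were 5.03% higher and 3.29% lower. Timp1, an inhibitor of metalloproteinases, was at 300, 311 and 132 CPM in TGFalpha replicates 1 to 3 and at 9.88, 5.36 and 5.94 CPM in control replicates 1 to 3 (log2 fold change 5.13 ± 0.42). The collagen chain genes Col1a2 (2.57 ± 0.23) and Col3a1 (2.52 ± 0.25) followed. Many other signals also act on these genes, and the list was assembled with earlier results of these data known. Without control replicate 2 or control replicate 3, 6 of the 19 rose.

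**Figure D4:**
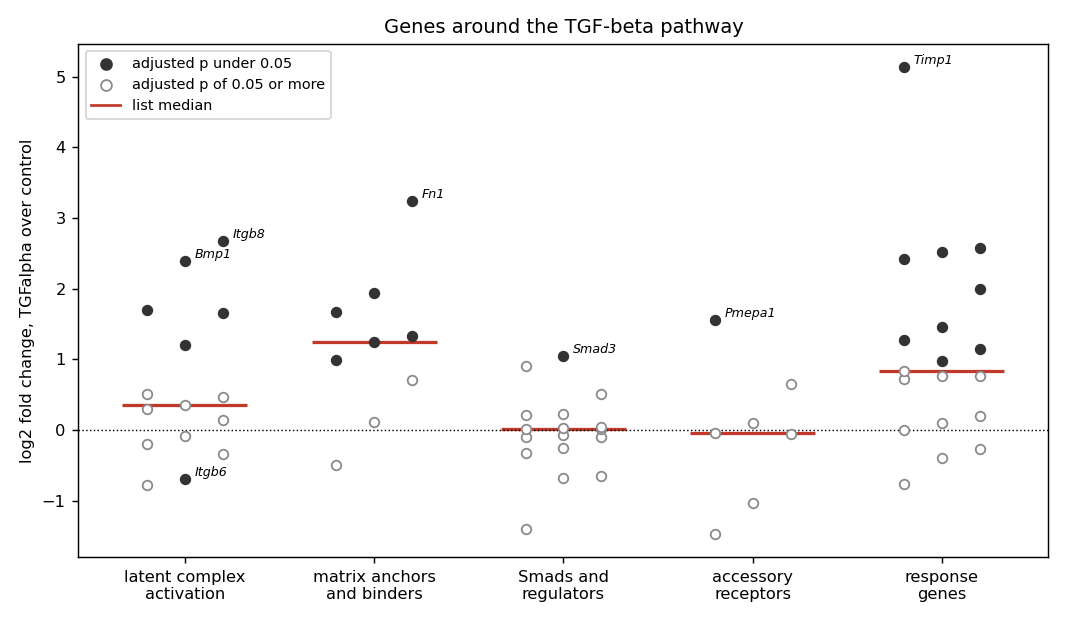
Log2 fold change of TGFalpha over control for each tested gene of 5 lists around the TGF-beta pathway, with filled points past an adjusted p of 0.05 and a red bar at each list median. The medians run from -0.04 for accessory receptors to 1.25 for matrix anchors and binders, and Timp1 is highest at 5.13.

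For each of the 4 genes that rose, the 3 genes with the most similar profile were found among those with a mean of at least 5 CPM. Likeness was the root mean square difference of log2 CPM, centred on the control mean, over the 6 libraries. For Tgfb3 these were Rnd3 (0.07), Zfpm2 (0.07), a cofactor of GATA factors, and Enc1 (0.09), which encodes an actin-binding protein. Rnd3 was at 150.2, 159 and 112 CPM in TGFalpha replicates 1 to 3 and at 27.6, 27.5 and 36.0 CPM in control replicates 1 to 3. For Ltbp2 they were Gpr153 (0.11), an orphan receptor gene, Col6a2 (0.13), a collagen VI chain gene, and Cpt1c (0.14). For Ltbp3 they were Adamts14 (0.07), a procollagen protease gene, Tspan4 (0.09), a tetraspanin gene, and Ckap4 (0.10). For Tgfbr1 they were B4galt5 (0.08), a galactosyltransferase gene, the kinetochore gene Ndc80 (0.11) and the Golgi membrane protein gene Golm1 (0.11). Of these 12 genes, B4galt5 and Ndc80 did not pass the test (edgeR adjusted p = 0.0616 and 0.111). All 12 were picked for a shift like that of a called member in these same libraries, so their calls are not separate evidence.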

How the data were processed

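Lung RNA was extracted with a column kit and sequenced after standard Illumina preparation, per the labels' protocols. In the deposited table the authors gave raw counts per Entrez gene number for 6 libraries, with no normalization, and bcl2fastq, CASAVA 1.8, TopHat, DESeq and the build mm10 are named in the submitters' processing notes. The counting tool and its strand setting are not stated in the sources used here. Columns were matched to samples by the description labels. Symbols and coordinates came from RefSeq genes on GRCm38.p6, which named 23976 of 24061 identifiers, and transcript lengths from GENCODE M21 coding transcripts.

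Genes were tested with edgeR 4.0.16 (R 4.3.3) after TMM scaling, with filterByExpr by group and a model that held group only. CPM values use TMM-scaled totals, and RPKM divides them by the longest coding transcript. Shares and the receptor ratio were tested by exact permutation over libraries (scipy 1.17.1). Standard errors are the fitted coefficient divided by the root of its F. The fit was also run on simulated counts, with a coefficient of variation of 0.295 between libraries for every gene. That value was taken from the fit to the real libraries, and genes with a low mean count were given no change. On these counts the fit called 95% of 4-fold changes and 18% of 2-fold changes, with 4 false calls. Changes of about 2-fold or less can thus remain uncalled. No library was a duplicate of another (chi-square over its degrees of freedom of 46.6 or more within groups). With 316 or more counts per member, the spread between libraries and not counting error limits the precision. Alternatives were DESeq2 1.42.0, limma-voom (limma 3.58.1), other scalings and filters, a replicate block, a robust fit and left-out libraries.

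The members and gene lists were chosen with earlier results of these data known. The genes named are the 10 members, Tgfa, up to 3 called genes per direction with the smallest adjusted p from each list of the pathway (or the 1 with the smallest adjusted p), and the 3 genes most like each called member. Cell type markers were named from their lists after their calls were seen.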

Additional observations from a re-analysis of the deposited data

How the results depend on the processing

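Tgfb3, Ltbp2 and Ltbp3 kept their direction and their calls in all 15 alternative fits each, with log2 fold changes from 2.18 to 2.46, 1.43 to 1.65 and 1.27 to 1.47. Tgfbr1 kept its direction (0.65 to 1.10) and lost its call in 6 of 15 fits, 5 of them with 1 library left out. Signs turned without TGFalpha replicate 2 for Tgfb1 and Tgfbr2, whose log2 fold changes ran from -0.044 to 0.31 and from -0.0094 to 0.19 with 1 library left out. The number of members that rose was 3 or 4 in every alternative run. DESeq2 gave 1 member that fell. Genes called across the table numbered 2503 by DESeq2, 260 at an adjusted p of 0.01, 473 without replicate 1 of both groups, and 238 to 1088 with 1 library left out. List counts under the alternatives were added after seeing the data. The activation genes that fell numbered 0 at an adjusted p of 0.01, 0 without replicate 1 of both groups and 0 to 0 with 1 library left out, and those that rose 3 to 5 there. The matrix anchor and binder genes that rose numbered 1 at an adjusted p of 0.01 and 1 to 6 with 1 library left out. Of the Smads and regulators 2 rose by DESeq2, limma-voom or the robust fit, 2 fell by DESeq2, 1 with the replicate block and 0 to 1 with 1 library left out. Of the accessory receptors 2 fell by DESeq2, 1 by limma-voom, 2 with the replicate block and 0 to 2 with 1 library left out, and 0 to 1 rose there. Of the response genes 1 fell by DESeq2, 1 with the replicate block and 0 to 1 with 1 library left out. The cause of these shifts was not tested, and the left-out fits also hold fewer libraries.

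Whether the replicate numbers pair the libraries is not stated in the labels, and correlations among 3 libraries per group cannot settle it. The correlation of deviations from the group means between same-numbered libraries was 0.42, -0.05 and 0.22 for replicates 1 to 3, and replicate 1 of the TGFalpha group and replicates 1 and 3 of the control group correlated best with their own number. With the replicate block 4 members rose, 0 fell and 1470 genes were called. Tgfb3 then had a log2 fold change of 2.28, and the block changed no member's call. The 3 within-library comparisons were exact permutation tests, whose smallest p is 0.1 with 3 libraries against 3 and 0.2 with 1 left out. The difference in Tgfb3 share was 19.6 to 23.5 percentage points with 1 library left out, 29.7 with exon unions and 24.6 without a length correction. That in Ltbp2 share was 10.4 to 12.1, 14.2 and 13.3 points under the same changes, and that in the receptor ratio -0.90 to -0.67 with 1 library left out.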
